A study of Homo sapiens with 3 samples.

Results

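The genes for the proteins of the cytoplasmic ribosome were followed in YB5 colon cancer cells given decitabine, carboplatin or both drugs. Members were chosen by name alone, as gene probes named RPL or RPS with a number and at most 1 of the endings A, L, X, Y or Y1, or named RPLP0, RPLP1, RPLP2 or RPSA. The rule found 82 genes with 212 probes of the 41000 probes on each array, in 221 spots. Of these genes 81, with 192 probes, had a probe outside columns 1 to 9 of the spot grid and were measured there, among 17446 genes in all. The remaining member, RPS27A, had probes in those columns alone, and members there are given apart. RPS4Y1 is counted with the rest, but its values are not given.

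YB5 was cloned from SW48 colon cancer cells, and its GFP reporter, present once per genome under a CMV promoter, is methylated and silent. Cells of this 1 clone received 4 doses, on days 1 to 4, of decitabine at 25 nM, carboplatin at 20 μM by the sample labels, or both, and RNA was taken on day 6. Control cells received DMSO, the solvent, and the sample titles call them untreated. Each treatment was measured on 1 of 3 two-colour Agilent arrays, with the treated RNA in green (Cy3) and the control RNA in red (Cy5), and no array had the dyes exchanged. Any dye bias of a probe is therefore included in its changes below. Because no treatment was repeated on a second array, no test was made and no error between cultures is known. Arrays are named by their labels, and "with decitabine" or "with carboplatin" below means the array so labelled. Which single drug each of these arrays holds is in doubt, since the study's tables of genes changed by carboplatin follow the label decitabine. Among the 92 genes tabulated as up, 54 passed 1.5-fold upward under the label decitabine and 15 under the label carboplatin, and among the 53 tabulated as down the counts downward were 39 and 4. Changes are given as log2 of the treated over the control signal, and a gene was called at 1.5-fold, a log2 ratio of 0.58.

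A ribosome has a small subunit, which reads the mRNA, and a large subunit, which forms the peptide bond, and each ribosomal protein belongs to one of them. The acidic proteins RPLP1 and RPLP2 sit with RPLP0 in a stalk of the large subunit that recruits translation factors. Most ribosomal protein mRNAs start with a C and a stretch of pyrimidines, the terminal oligopyrimidine or TOP motif, through which mTOR signalling sets their translation. Some ribosomal proteins act outside the ribosome, such as RPL5, RPL11 and RPL23, which bind the p53 inhibitor MDM2. Decitabine is a cytidine analogue that traps DNA methyltransferases, and carboplatin crosslinks DNA.

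RPS27 and RPS27L are shown first because these close paralogues of the small subunit changed in opposite directions on the same arrays. On the array of both drugs they were also the lowest and the highest member, so their contrast describes the extremes of these values. Only on that array did both pass 1.5-fold. Their array probes, shown with the bases that differ between them in capitals, cover the same part of both mRNAs. The RPS27L probe lies on the minus strand at chr15:63447866-63447925 and the RPS27 probe on the plus strand at chr1:153964053-153964112, in GRCh37 as the files give it.
RPS27L: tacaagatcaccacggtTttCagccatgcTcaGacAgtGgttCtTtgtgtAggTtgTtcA
RPS27: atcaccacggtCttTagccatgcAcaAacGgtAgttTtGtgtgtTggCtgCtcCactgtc
The probes share 54 positions, of which 42 hold the same base and 12 differ, and read in frame all 18 codons there give the same residue. Over these positions the probes thus differ only at bases that leave the protein unchanged. Whether the mRNA of one gene also binds the probe of the other was not measured.

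A second pair is shown because its probes are still closer, RPL10 on chromosome X and RPL10L, its intronless copy on chromosome 14. The RPL10 probe lies on the plus strand at chrX:153628866-153628925 and the RPL10L probe on the minus strand at chr14:47120514-47120573.
RPL10: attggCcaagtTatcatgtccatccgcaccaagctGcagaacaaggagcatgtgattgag
RPL10L: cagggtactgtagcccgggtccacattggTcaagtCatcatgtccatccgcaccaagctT
Of 36 shared positions 33 were the same and 3 differed, and all 12 codons gave the same residue. Binding of RPL10 mRNA to the RPL10L probe was not measured either, so the RPL10L signal may include it.

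The start of the mRNA was read from RefSeq start sites (GRCh38.p14), which the table given here holds for 65 of the 82 members at 80 start sites. A run was counted where the first base is C and the first 5 bases are all C or T on the gene's own strand. Of the member start sites 47 had such a run (58.8%), against 4.07% of 35116 start sites of all genes and 6.67% of 90 start sites of mitochondrial ribosomal protein genes. Windows of 30 bases, 10 before the start and 20 from it, are shown for members that the results below turn on, with the run in capitals.
RPS27: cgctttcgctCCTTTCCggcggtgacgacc
RPS27L: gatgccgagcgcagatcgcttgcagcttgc
RPL13A: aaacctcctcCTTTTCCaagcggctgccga
RPL41: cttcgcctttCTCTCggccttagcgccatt
RPLP0: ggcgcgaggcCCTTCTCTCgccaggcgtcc
RPS9: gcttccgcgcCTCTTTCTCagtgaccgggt
RPS6: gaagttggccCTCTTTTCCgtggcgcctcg
RPS27L was 1 of 18 members in the table with no run at any listed start, while RPS27 had a run of 7 bases. Members with and without a run had close medians, but a run was counted at the listed start alone. RPL19 and RPL4, counted as without one, have a stretch of pyrimidines across or just after a listed start. The grouping therefore does not separate mRNAs with a TOP motif from those without. On the array of both drugs the median change was −0.27 over 45 members with a run and −0.25 over 18 without one, and on the array labelled decitabine −0.14 and −0.15.

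Member probes were among the brightest on the arrays. Of the 81 members 78 lay in the brightest 10% of genes, and 79 were well above background in both channels of each array. RPL39L, a paralogue known from testis, was in no channel, so its mRNA is known only as a limit. Of 10 intestinal epithelial markers 6 were well above background in every channel (KRT8, KRT18, KRT19, CDH1, CDX2 and VIL1), whereas 1, CDX1, was in none. KRT20, CDH17 and LGALS4 were so in some channels only, with signals of 6.18 to 7.22. KRT8, though counted among the 6, was also dim, with control signals of 7.32, 7.18 and 7.26. Those of COL1A1 were 7.18, 7.30 and 7.26. Of 12 markers of blood, vessel, stroma and glia 4 were in no channel (COL1A2, COL3A1, PECAM1 and PTPRC) and 3 in every channel (CD14, COL1A1 and VWF), and the whole list had control signals of 6.05 to 7.18 with decitabine, close to background. The RNA of a whole culture cannot tell fewer cells from less RNA per cell. Saturated member spots numbered 3, 2 and 1 with decitabine, carboplatin and both drugs. RPL13, RPLP0, RPS2 and RPS21 held them. Between the control channels of the 3 arrays, 0 of 81 members differed 1.5-fold, against 0.602 to 0.831% of all genes.

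Nearly all members changed by less than 1.5-fold on every array. On the array labelled decitabine 76 of 81 stayed within that range, 1 was up and 4 were down, beside 5.07% up and 4.9% down among all genes. On the array labelled carboplatin 75 stayed within it, 0 were up and 6 were down, beside 2.75% up and 1.43% down among all genes. With both drugs 74 stayed within it, 1 was up and 6 were down, beside 7.38% up and 5.82% down. Member counts down were thus 4.94, 7.41 and 7.41% in the same order, near the share of all genes on 2 of the arrays and above it on the array labelled carboplatin. These counts rest on the normalization. With median centring in place of a loess curve, 2, 2 and 1 were up and 62, 70 and 71 down. Among all genes that setting called 6.46, 8.64 and 4.32% up and 20.2, 18.4 and 21.2% down. A loess span of 0.05 in place of 0.3 left 1, 0 and 2 members up and 0, 0 and 1 down. All genes then stood at 5.12, 2.8 and 7.55% up and 4.69, 1.28 and 5.63% down.

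The members' median change was −0.12 with decitabine, −0.23 with carboplatin and −0.26 with both drugs by the array labels, where the medians over all genes were −0.0015, −0.0041 and 0.0052. Below 0 were 55, 65 and 67 of the 81. Relative to the median of all genes the members' median was below 0 under all 11 settings tried, but it ranged from −0.69 to −0.0042 with decitabine, −0.83 to −0.04 with carboplatin and −0.92 to −0.10 with both. Large subunit genes, 46 in number, had medians of −0.12, −0.17 and −0.21, and the 32 small subunit genes −0.11, −0.28 and −0.29. The members differed among themselves with an SD of 0.30, 0.25 and 0.31. Repeated spots of 1 probe had a pooled SD of 0.078, 0.075 and 0.076, but different probes of 1 member had one of 0.24, 0.22 and 0.26, close to the spread between members. Of 52 members with several probes, 11, 8 and 13 had probes at least 1.5-fold apart.

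**Figure D1:**
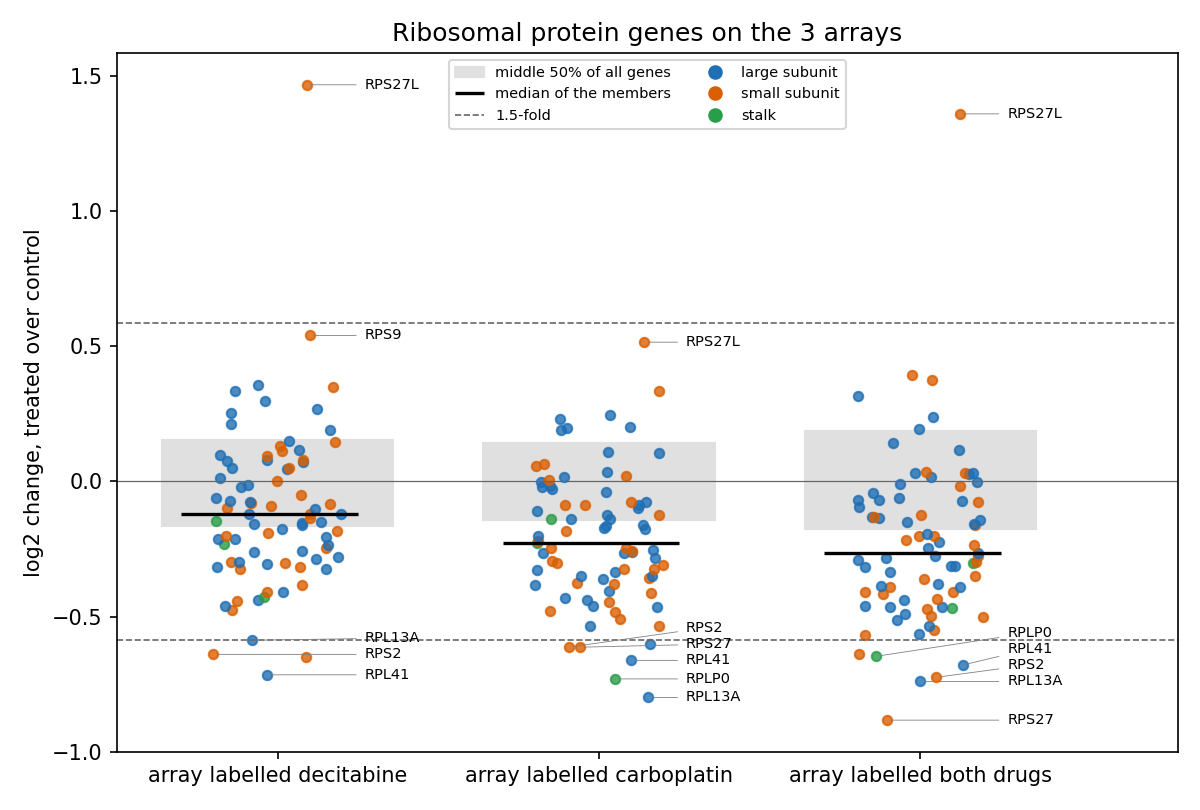
Log2 change of treated over control (y axis) of 80 ribosomal protein genes, 1 point per gene, on the 3 arrays (x axis). Grey boxes span the middle 50% of all genes, black lines are the members' medians (−0.12, −0.23 and −0.26) and dashed lines mark 1.5-fold. RPS27L stands alone at the top on the arrays labelled decitabine (1.47) and both drugs (1.36).

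RPS27L, the paralogue of RPS27 and a known transcriptional target of p53, was the single member up 1.5-fold by the brightest probe of each gene. Its signal went from 14.98 in the control channel to 16.45 in the treated channel with decitabine, in log2 units. With carboplatin it went from 14.75 to 15.27, and with both drugs from 14.87 to 16.23. The control channels lay close together, and the treated channel was above every control channel on each array. The change was 1.47 (2.76-fold) with decitabine, 0.52 (1.43-fold) with carboplatin and 1.36 (2.57-fold) with both. Under the 10 alternatives it stayed past 1.5-fold with decitabine (0.87 to 1.56) and with both drugs (0.71 to 1.36), and with carboplatin it ran from −0.11, under median centring, to 0.52. It has 1 probe and 1 spot on these arrays. Dimmer probes of some other members also passed 1.5-fold upward. Of the 192 member probes outside columns 1 to 9, RPS27L included, 4, 0 and 4 were up (2.08, 0 and 2.08%). Among all genes 5.07, 2.75 and 7.38% were up. A dimmer RPL31 probe gave 0.70, 0.27 and 0.69.

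RPS27, known as metallopanstimulin, moved the other way. Its brightest probe went from 18.21 to 17.83 with decitabine, from 18.29 to 17.68 with carboplatin and from 18.23 to 17.35 with both drugs. The changes were −0.38, −0.61 and −0.88, and the last was the lowest of all members on that array. With both drugs it stayed past 1.5-fold under all 10 alternatives (−1.70 to −0.63). A second RPS27 probe gave −0.09, −0.13 and −0.43, so the size depends on the probe and the direction did not.

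**Figure D2:**
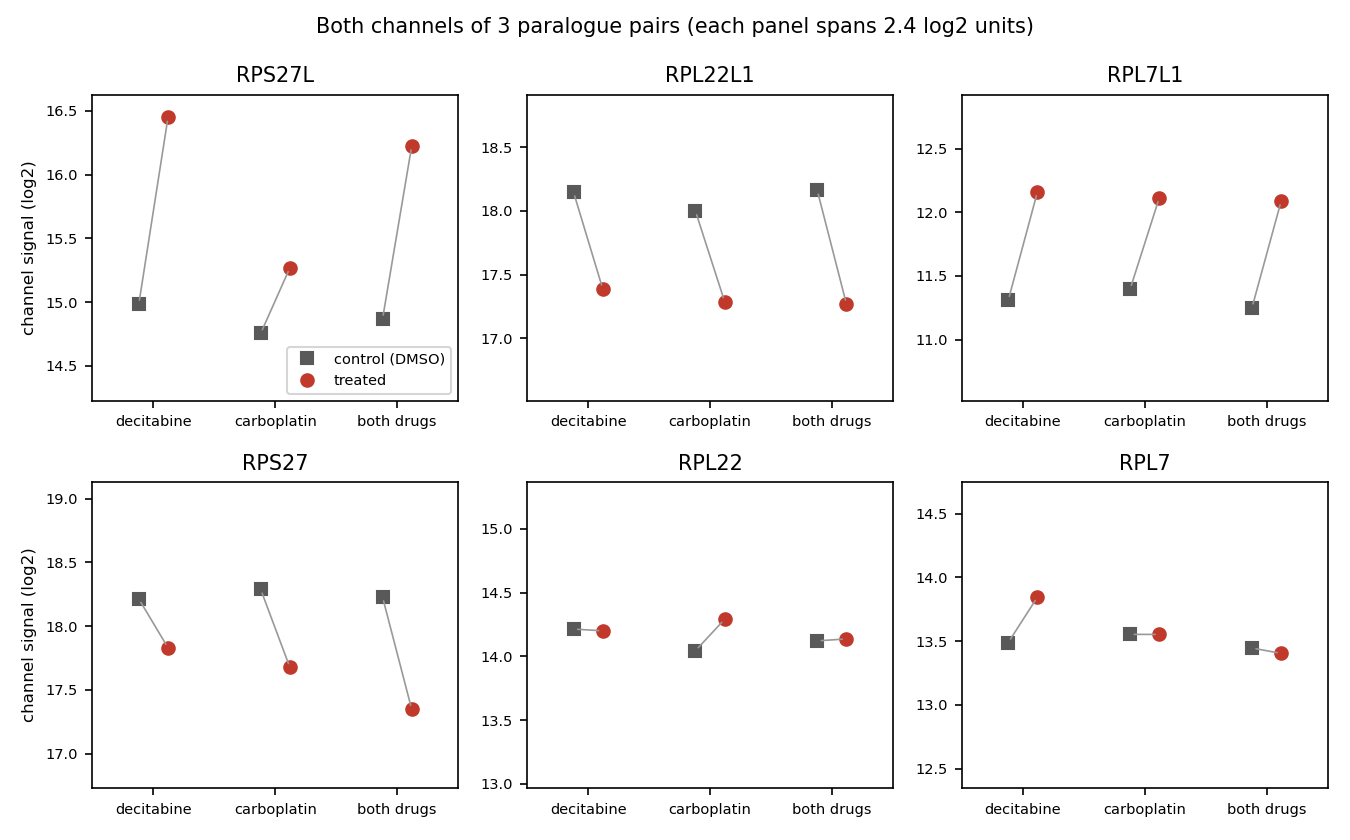
Channel signal in log2 units (y axis) of control cells (squares) and treated cells (circles) on the 3 arrays (x axis) for 3 ribosomal protein genes (lower row) and their paralogues (upper row), 1 spot or averaged probe per point. RPS27L went up by 1.47, 0.52 and 1.36 while RPS27 changed by −0.38, −0.61 and −0.88. Levels are comparable within a panel only.

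Among the other paralogues inside the naming rule, no member passed 1.5-fold on any array as reported. RPL10L changed by 0.12, −0.02 and −0.16 and RPL10 by −0.29, −0.35 and −0.49 with decitabine, carboplatin and both drugs. RPL3, which reaches towards the peptidyl transferase centre, gave 0.30, 0.11 and 0.19, and RPL3L, its muscle paralogue, −0.06, 0.11 and 0.03 at a signal near background. RPL39 changed by −0.16, −0.08 and −0.26. The X-linked RPS4X gave −0.12, −0.07 and −0.20. RPL36A gave −0.41, −0.53 and −0.51 by its brightest probe, which the files place on chromosome 11 while RefSeq has the gene on X. Its other probes gave 0.23, 0.13 and 0.13, and 0.07, −0.14 and −0.03. For the other 79 members compared, both chromosomes were the same.

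Some genes just outside the naming rule passed 1.5-fold on every array. RPL22L1, the paralogue of RPL22, had control signals of 18.15, 18.00 and 18.16 and treated signals of 17.39, 17.29 and 17.27. All treated channels were below all control channels, and the changes were −0.76, −0.71 and −0.89 (−1.71 to −0.48 over all alternatives and arrays, under 1.5-fold with carboplatin in 2 of the 10, at −0.48 with a loess span of 0.05 and −0.54 with Agilent processed signals). RPL22 itself changed by −0.01, 0.25 and 0.02. RPL7L1, a nucleolar protein related to RPL7, went from 11.31 to 12.16, from 11.40 to 12.11 and from 11.25 to 12.09. Here too the channels did not overlap, with changes of 0.85, 0.72 and 0.84 next to 0.36, −0.00060 and −0.04 for RPL7. Under median centring RPL7L1 came to 0.40, 0.24 and 0.39, and with carboplatin it was also under 1.5-fold over the median of its probes (0.49) and with columns 1 to 9 included (0.57). RPL26L1 stayed within −0.05 and 0.01 while RPL26 gave −0.21, −0.46 and −0.46. RPL36AL and FAU, which encode ribosomal proteins under other names, and RACK1, a scaffold on the small subunit, lay between −0.37 and 0.23.

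The stalk proteins were all below 0 as reported here. RPLP0, often used as a reference gene in expression studies, had control signals of 18.38, 18.44 and 18.28 and treated signals of 17.96, 17.71 and 17.64. Its changes of −0.43, −0.73 and −0.65 come from its brightest probe, whose spot was saturated on at least 1 array. A dimmer RPLP0 probe, with 8 spots outside columns 1 to 9, gave −0.17 ± 0.045, −0.33 ± 0.073 and −0.35 ± 0.051 (SD over spots, n = 8). The difference between probes exceeded the difference between spots. RPLP1 gave −0.23, −0.14 and −0.47, and RPLP2 −0.14, −0.23 and −0.30. Under other settings RPLP1 reached 0.21 on the array labelled carboplatin and RPLP2 0.03 on that array and 0.02 with decitabine.

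Members down at least 1.5-fold on some array included RPL41, RPL13A, RPS2, RPL10A, RPLP0 and RPS27. RPL41, a very short and basic protein, went from 18.32 to 17.60, from 18.22 to 17.55 and from 18.34 to 17.66, with changes of −0.72, −0.66 and −0.68. RPL13A, a large subunit protein also used as a reference gene, went from 18.12 to 17.54, from 18.10 to 17.30 and from 18.15 to 17.41. Its changes were −0.59, −0.80 and −0.74. Its other probes were near 0, at −0.03, −0.05 and −0.25 for one and 0.04, −0.07 and −0.20 for the other.

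RPS2, a protein of the mRNA entry channel, had control signals of 18.46, 18.37 and 18.47 and treated signals of 17.82, 17.75 and 17.75, with changes of −0.64, −0.61 and −0.72, and its spot too was saturated on at least 1 array. Its 4 probes went in both directions. The next brightest gave −0.27, −0.24 and −0.39, and a dimmer one 0.50, 0.51 and 0.40. The dimmest RPS2 probe gave 0.48, 0.25 and 1.07, past 1.5-fold upward with both drugs. The median over the RPS2 probes was 0.11, 0.0078 and 0.0065. RPL10A, of the large subunit, changed by −0.32, −0.60 and −0.56. The second RPL10A probe gave −0.02, −0.30 and −0.31. With a loess span of 0.05, only RPS27 on the array of both drugs stayed down 1.5-fold among all these calls.

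RPL5, RPL11 and RPL23, which restrain MDM2, did not move as one by their brightest probes. RPL11 gave 0.08, −0.03 and −0.10, RPL5 −0.16, −0.33 and −0.25, and RPL23 −0.44, −0.36 and −0.53. The second RPL5 probe gave 0.07, −0.16 and −0.20. The other RPL23 probes gave −0.05, −0.22 and −0.04, and 0.01, −0.18 and 0.27, so the size of its change depends on the probe. RPSA, the laminin receptor, gave −0.09, −0.25 and −0.08. RPS6, the substrate of S6 kinase, gave −0.20, −0.18 and −0.20 with control signals of 17.71, 17.69 and 17.70. RPS3, also an endonuclease in DNA repair, gave −0.30, −0.33 and −0.41, and its dimmer probe 0.13, 0.0076 and −0.16. None of these genes reached 1.5-fold on any array by its brightest probe.

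Genes mutated in Diamond-Blackfan anaemia, an inherited failure of red cell production, fell on both sides of 0. RPS19, the one most often affected, gave 0.35, 0.0036 and 0.39. RPS24 gave 0.08, −0.09 and −0.12, and RPS26 −0.10, −0.30 and −0.21. RPS10 gave −0.08, −0.48 and −0.24. RPL35A gave −0.46, −0.40 and −0.47. The brightest RPS7 probe gave −0.44, −0.29 and −0.42, while its other probes gave −0.07, −0.02 and −0.03, and 0.27, 0.29 and 0.22. None was called on any array as reported, and RPS19 reached 0.68 with both drugs at a loess span of 0.05.

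RPS9 was the highest member after RPS27L on the single-drug arrays, and with both drugs it came after RPS27L and RPS19. RPS9, of the small subunit body, went from 15.64 to 16.18, from 15.67 to 16.01 and from 15.63 to 16.01, with changes of 0.54, 0.33 and 0.38. Treated signals were above control signals on all arrays, but under median centring its change was between −0.34 and −0.07. By their brightest probes RPL17 gave 0.33, 0.20 and 0.24, RPL36 0.25, 0.23 and 0.32, and RPL27A 0.27, 0.20 and 0.14. The other RPL17 probes gave 0.06, −0.28 and −0.19, and 0.45, 0.08 and 0.21. A much dimmer RPL27A probe gave −0.18, −0.35 and −0.34, so the direction of both genes depends on the probe. RPS15 was the fifth from the bottom with decitabine and gave −0.48 on both single-drug arrays and −0.55 with both drugs. A dimmer RPS15 probe gave −0.59, −0.46 and −0.78, past 1.5-fold down with decitabine and with both drugs.

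The change of a member went with its spot brightness. Among 79 members in the brightness comparison, Spearman's rho between brightness and change was −0.55, −0.49 and −0.49 with decitabine, carboplatin and both drugs (Pearson's r −0.32, −0.41 and −0.34). This is a description across genes that share an array and a curve. The 27 brightest members had medians of −0.30, −0.36 and −0.42, the next 26 −0.17, −0.26 and −0.30, and the 26 dimmest 0.03, −0.08 and −0.12. All 4, 6 and 6 members down 1.5-fold were among the 27 brightest. Members were 27 of the 42 genes that bright, and the 15 other genes there had medians of −0.29, −0.34 and −0.29, with 3, 5 and 3 of them down 1.5-fold. Their median was near that of the 27 members on the single-drug arrays and higher with both drugs. When member spots were left out of the loess fit, the members' medians were −0.15, −0.28 and −0.33, and with the narrower curve −0.03, −0.04 and −0.09. The part of brightness in the members' change was not tested.

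**Figure D3:**
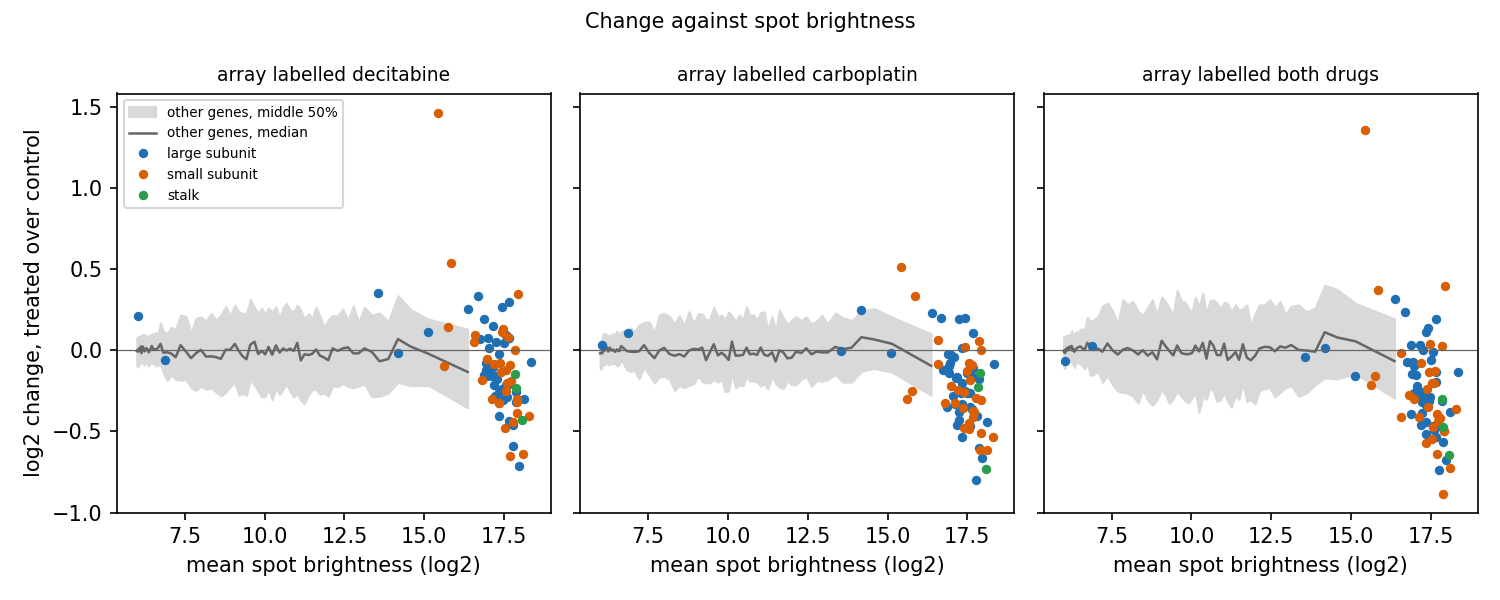
Log2 change (y axis) against mean spot brightness in log2 units (x axis) on the 3 arrays, for 80 ribosomal protein genes (points) and for all other genes in 80 bins of brightness (grey line, median; band, middle 50%). Members crowd the bright end, where the median of other genes in the last bin is also below 0, at −0.13, −0.09 and −0.07.

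**Figure D4:**
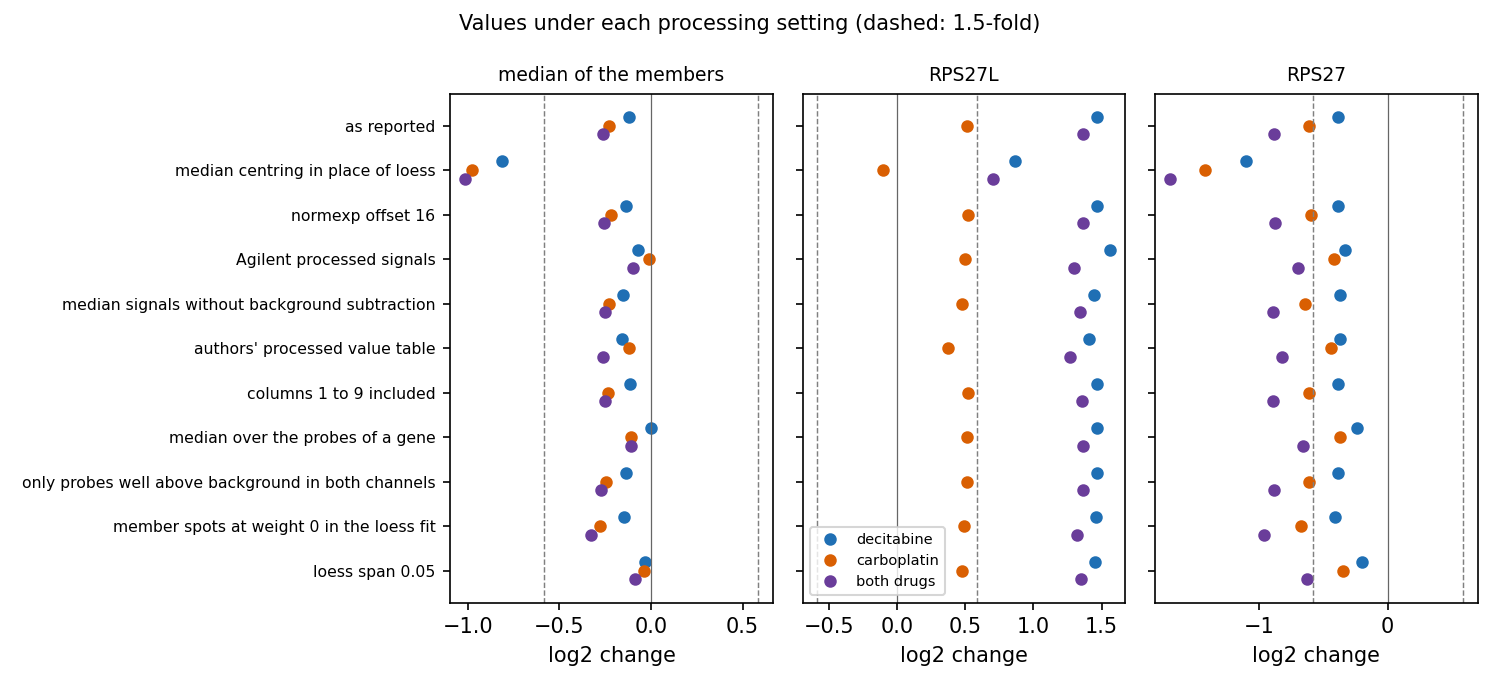
Median change of the members, and the change of RPS27L and RPS27, in log2 units (x axis) under the reported setting and 10 alternatives (y axis), with 1 colour per array. The members' median ran from −0.81 to 0.00060 with decitabine, while RPS27L stayed above 1.5-fold there and RPS27 stayed past 1.5-fold down with both drugs.

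Treated channels carry the same dye on every array, so a dye preference of a probe enters both sides when arrays are set against each other. Decitabine minus carboplatin gave a median difference of 0.12 over the members, with 59 of 81 above 0. RPS27L, at 0.95, was the single member 1.5-fold higher, and 0 were that far lower, beside 3.69% of all genes higher and 4.48% lower. Both drugs minus carboplatin gave a median of −0.03, with RPS27L again the single member 1.5-fold higher, at 0.84, and 0 lower, beside 4.14% and 3.36% of all genes. Both drugs minus decitabine gave a median of −0.11, and 66 of 81 members were below 0. On that comparison 0 members passed 1.5-fold either way, beside 1.82% of all genes higher and 0.321% lower. The widest gap there was that of RPS27, at −0.50.

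Members in columns 1 to 9 went a different way on one array. There, 20 probes of 16 genes were measured on all arrays. On the array labelled decitabine all 20 were above 0, from 1.17 to 2.12 with a median of 1.71, against a median of 0.01 for the 192 member probes elsewhere on that array. With carboplatin and with both drugs the same probes had medians of −0.19 and −0.10. The step lay in the control channel, whose median was 15.11 on the array labelled decitabine and 16.61 and 16.49 on the others, while the treated medians were 16.92, 16.33 and 16.55. All probes in those columns of that array, 4158 in number, had a median change of 0.76. RPS27A, which is made as a fusion with ubiquitin, gave 1.80 and 1.70 by its pair of probes with decitabine, −0.30 and −0.34 with carboplatin, and −0.19 and −0.28 with both, and its value on the first array is not used.

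**Figure D5:**
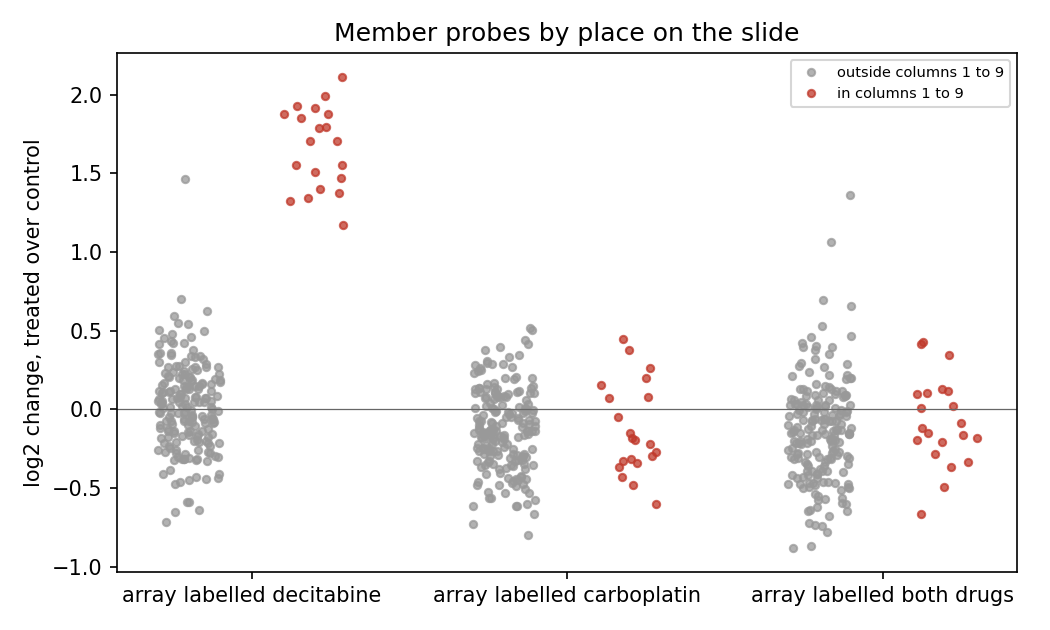
Log2 change (y axis) of single member probes on the 3 arrays (x axis), outside columns 1 to 9 of the spot grid (grey) and in them (red). On the array labelled decitabine the red points lie between 1.17 and 2.12, apart from the grey points around 0.01, and on the other arrays both sets overlap.

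The other genes of the translation machinery, taken from lists, had higher medians than the ribosomal proteins. Ribosome biogenesis factors, 29 measured, had medians of 0.26, 0.06 and 0.30, with 3, 0 and 4 up 1.5-fold (10.3, 0 and 13.8%) and 0 down on any array. Over all genes, as above, 5.07, 2.75 and 7.38% were up. RRS1, which assembles the large subunit, gave 0.95, 0.41 and 0.85. BYSL, a factor of the small subunit, gave 0.62, 0.16 and 0.70, and WDR43, of the nucleolar processome, gave 0.69, 0.15 and 0.61. Control and treated signals of RRS1 were 11.23 and 12.18, 11.22 and 11.63, and 11.16 and 12.02. These probes are dimmer than those of the members.

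Proteins of the mitochondrial ribosome, 66 measured, had medians of 0.30, 0.05 and 0.22, with 11, 1 and 7 up (16.7, 1.52 and 10.6%) and 1, 0 and 1 down, so the share up was under that of all genes with carboplatin. Factors of translation initiation, 20 measured, had medians of 0.17, −0.08 and 0.18. Called up were 0, 1 and 1 (0, 5 and 5%) and called down 1, 0 and 1 (5, 0 and 5%). Among all genes 5.07, 2.75 and 7.38% were up and 4.9, 1.43 and 5.82% down. EIF1, which guards start codon choice, gave −0.73, −0.31 and −0.78, and EIF4G1, the scaffold of the cap complex, 0.49, 0.73 and 0.70. Translation factors whose mRNAs also carry a TOP motif, 18 measured, had medians of 0.10, −0.10 and −0.01. Called up were 0, 1 and 0 (0, 5.56 and 0%) and called down 0, 0 and 1 (0, 0 and 5.56%). Of these 18 genes EEF2, which moves the ribosome along the mRNA, gave 0.49, 0.63 and 0.56. EEF1A1, which delivers aminoacyl-tRNA and is as bright as the brightest members, gave −0.29, −0.57 and −0.52. HNRNPA1, an RNA-binding protein, gave −0.50, −0.56 and −0.70.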

How the data were processed

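RNA of treated and control YB5 cells was measured on 3 arrays, 1 per treatment. The scanner files deposited by the authors hold spot intensities (mean, median, local background and processed signal) read with Agilent Feature Extraction 9.5.3.1 by the file headers, while the submitters' processing notes name 8.5.1.1. The deposited log ratio is log10 of red over green and was not used. The authors' processed table holds loess-normalized log2 values, whose direction, treated over control, was read from their correlation with the scanner values (0.95, 0.91 and 0.96), and their scale and background step are not stated beyond that. Mean intensities were corrected by normexp (offset 50) and normalized by loess (span 0.3) in limma 3.58.1 under R 4.3.3, with control spots, outlier spots and columns 1 to 9 at weight 0. Channel signals were scaled by Aquantile. Spots of a probe were averaged, and the brightest probe outside those columns stood for a gene. Coordinates are GRCh37, by the file headers. A gene was called at 1.5-fold. Sequences came from the files and RefSeq (GRCh38.p14). The steps were tested on simulated data. Figures used matplotlib 3.10.9.

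Members and lists were chosen with earlier results of these data known. Named genes were every member past 1.5-fold, the 5 highest and 5 lowest per array, members by role, and relatives outside the rule. Some genes that this rule names are not reported here. No array holds more than 1 sample of a treatment, so precision is limited by the number of arrays, and no depth or interval applies.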

Additional observations from a re-analysis of the deposited data

How the results depend on the processing

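No paired analysis was possible because each treatment has 1 array, and no array could be left out. Medians and counts are given below for decitabine, carboplatin and both drugs, in that order. With median centring the members' median was −0.81, −0.98 and −1.02, where the median of all genes was −0.13, −0.15 and −0.10. Members up were 2, 2 and 1 and members down 62, 70 and 71. All genes were 6.46, 8.64 and 4.32% up and 20.2, 18.4 and 21.2% down. With Agilent processed signals the members' median was −0.07, −0.013 and −0.10, with 3, 0 and 2 up and 1, 1 and 2 down. All genes there were 22.6, 7.63 and 13.1% up and 11.7, 6.02 and 11.2% down. In the authors' processed table the members' median was −0.16, −0.12 and −0.26, with 1, 0 and 2 up and 4, 3 and 3 down. All genes in it were 4.2, 2.59 and 6.39% up and 6.63, 3.08 and 8.09% down. With the median over the probes of a gene the members' median was 0.00060, −0.11 and −0.11. Members down were 2, 1 and 4, beside 3.5, 0.831 and 4.37% of all genes, and RPS2 turned to 0.11, 0.0078 and 0.0065. Including columns 1 to 9 raised the count up with decitabine to 6, while the share of all genes up there rose from 5.07 to 10.6%. Both alternatives that follow were chosen after seeing the data. With member spots at weight 0 in the loess fit 11 were down with both drugs, beside 5.9% of all genes. With a loess span of 0.05 the members' median was −0.034, −0.040 and −0.088, with 1, 0 and 2 up and 0, 0 and 1 down. All genes then stood at 5.12, 2.8 and 7.55% up and 4.69, 1.28 and 5.63% down. The remaining medians differed from the reported ones by less than the SD of repeated spots, and the remaining counts were within 1.5 times. The cause was not tested. Among the named members RPL39L was not well above background in any channel, and RPL3L, though flagged above it, lay near it. A spot at saturation, as in RPLP0 and RPS2, has only a bound.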
